A study of Mus musculus with 18 samples.

Results

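The cytochrome P450 4a (Cyp4a) subfamily of the mouse, a set of fatty acid omega-hydroxylase genes, was followed in liver RNA-seq. Its members were every gene symbol beginning with Cyp4a, which gave 8 of the 20512 symbols listed: *Cyp4a10*, *Cyp4a12a*, *Cyp4a12b*, *Cyp4a14*, *Cyp4a31*, *Cyp4a32* and the pseudogenes *Cyp4a29-ps* and *Cyp4a30b-ps*. The 6 genes had a mean log2 value of at least 2 and were tested among 13268 genes. The 2 pseudogenes fell below that minimum, with log2 values between -0.43 and -0.25 in all 18 livers, and were not tested.

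The livers came from 18 male C57BL/6 mice, 1 mouse per library and 6 mice per group, aged 6 to 7 weeks at the start. The chow group ate a diet with 13% of its energy from fat and the HFD group a high-fat diet with 60% of its energy from fat, each for 4 months. Mice of the HFD+AC261066 group ate the same high-fat diet and for the last 2 of the 4 months drank AC261066, a synthetic agonist selective for retinoic acid receptor β2, at 3 mg per 100 ml of water. Drinking water of all 3 groups held 0.2% dimethyl sulfoxide, the vehicle, over those 2 months, and all mice were fasted overnight before the livers were taken. No group received AC261066 on chow, so the agonist can be compared only on the high-fat diet. The mice were studied in 2 rounds, and which library came from which round is not given in the sources used here.

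Cyp4a enzymes sit in the endoplasmic reticulum and add a hydroxyl group to the terminal, or omega, carbon of medium- and long-chain fatty acids. The omega-hydroxylated acid is oxidized by alcohol and aldehyde dehydrogenases to a dicarboxylic acid, which peroxisomes shorten. Some of these enzymes, not all alike, also turn arachidonic acid into 20-hydroxyeicosatetraenoic acid, a lipid that acts on blood vessels and kidney. In mouse liver *Cyp4a10* and *Cyp4a14* are textbook targets of the fatty acid receptor PPARα, which binds DNA with a retinoid X receptor as its partner, whereas *Cyp4a12a* is known as a male-biased gene that depends on androgen and growth hormone.

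The 6 genes lie in 1 cluster on chromosome 4, spanning 322.6 kb of mm9 (NCBIM37) from 114971651 to 115294207. From the start of the cluster on, the gene models were *Cyp4a12a* (114971651 to 115005420), *Cyp4a12b* (115084229 to 115111639), *Cyp4a14* (115158805 to 115168747), *Cyp4a10* (115190869 to 115206254), *Cyp4a31* (115236254 to 115251618) and *Cyp4a32* (115273574 to 115294207). *Cyp4a14* is read from the minus strand and the other 5 from the plus strand. The pseudogene *Cyp4a30b-ps* (115125209 to 115143666) lies between *Cyp4a12b* and *Cyp4a14*, and *Cyp4a29-ps* (114914689 to 114927162) lies before *Cyp4a12a*.

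Close relatives in this cluster limit what a short read can tell apart, so the sequences are shown before the values. The coding sequence of *Cyp4a10* was identical at 96.6% of aligned bases to that of *Cyp4a31* and at 97.2% to that of *Cyp4a32*, and *Cyp4a12a* at 98.5% to *Cyp4a12b*. *Cyp4a14* stood apart, with 75.0% to 76.0% identity to the other 5. The 51-base stretch in which *Cyp4a10* and *Cyp4a31* differ most, which is as long as 1 end of a sequenced fragment, is printed for the 6 genes. It is exonic, crosses the junction of exons 3 and 4, and starts at coding base 378 of *Cyp4a10*, *Cyp4a31* and *Cyp4a32*, 372 of *Cyp4a14* and 375 of *Cyp4a12a* and *Cyp4a12b*. With the intron between, the stretch covers 4:115192900 to 115193721 in *Cyp4a10*, 4:115238319 to 115239133 in *Cyp4a31*, 4:115275576 to 115279298 in *Cyp4a32*, 4:115166259 to 115166775 in *Cyp4a14*, 4:114974104 to 114974564 in *Cyp4a12a* and 4:115086659 to 115087123 in *Cyp4a12b*. Capitals mark bases that differ from *Cyp4a10*.
Cyp4a10: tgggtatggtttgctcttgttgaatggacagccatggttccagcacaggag
Cyp4a31: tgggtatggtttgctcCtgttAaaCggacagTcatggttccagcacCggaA
Cyp4a32: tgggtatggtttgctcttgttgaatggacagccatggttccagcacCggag
Cyp4a14: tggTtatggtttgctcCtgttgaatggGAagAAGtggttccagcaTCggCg
Cyp4a12a: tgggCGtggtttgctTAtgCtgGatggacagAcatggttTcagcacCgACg
Cyp4a12b: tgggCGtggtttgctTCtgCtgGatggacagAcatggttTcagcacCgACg

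In this stretch, chosen for the largest difference between *Cyp4a10* and *Cyp4a31*, the latter differed from *Cyp4a10* at 6 of 51 bases. *Cyp4a32*, which played no part in the choice, differed at 1. The corresponding stretch for *Cyp4a12a* (4:114999236 to 114999286) and *Cyp4a12b* (4:115105489 to 115105539) lies in exon 6 of both and holds 4 differing bases, in capitals in the second line.
Cyp4a12a: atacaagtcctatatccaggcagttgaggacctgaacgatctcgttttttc
Cyp4a12b: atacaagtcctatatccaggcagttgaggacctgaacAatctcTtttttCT

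Of the 51-base words of each coding sequence, 39.9% of those of *Cyp4a10* also occurred in a transcript of another gene, 30.9% of those of *Cyp4a31* and 45.8% of those of *Cyp4a32*. These words were shared only within this trio. *Cyp4a12a* and *Cyp4a12b* shared 54.3% of their words with each other. *Cyp4a14* shared none of its 1474 words with any other gene. With up to 2 mismatched bases allowed, 97.2% of the *Cyp4a10* words, 85.4% of the *Cyp4a31* words, 83.8% of the *Cyp4a32* words, 90.9% of the *Cyp4a12a* and *Cyp4a12b* words and 3.39% of the *Cyp4a14* words matched another member. Both ends of a fragment were read, and untranslated exons were not compared, so these shares are not shares of ambiguous reads. How reads that matched several genes were counted is not given in the sources used here, and the values of *Cyp4a10*, *Cyp4a31* and *Cyp4a32*, and of *Cyp4a12a* and *Cyp4a12b*, are therefore uncertain as values of single genes.

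The libraries as a whole bear on what follows. The deposited values are log2 expression after batch correction by the authors, and the file does not give the number of counted reads behind a value. Taken over the 3 groups together, but not within each group, libraries 1 to 3 and 4 to 6 have the same mean for every gene. Library medians over tested genes lay between 8.35 and 8.38. On the first principal component, which held 29.3% of the variance, HFD+AC261066 replicate 3 (-12.5) lay in the range of the chow livers (-21.45 to -10.9), while the other 5 treated livers lay from 3.53 to 7.22 and the HFD livers from 8.403 to 21.2. Albumin (*Alb*) had log2 values between 20.8 and 21.36 in every liver. Kidney, the other main Cyp4a tissue, was checked with 5 markers, none of which reached the minimum, with *Slc12a1* listed at 0 and *Umod* at or under -2.58.

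To compare the members with each other, each log2 value was put on the linear scale and divided by the gene's exon length. On this per-kb scale *Cyp4a14* was the most abundant member and *Cyp4a10* the next in all 18 livers. In chow liver *Cyp4a14* made up 65.3% ± 4.8 (SD, n = 6) of the summed per-kb level of the 6 genes and *Cyp4a10* 29.2% ± 3.7. *Cyp4a12a* held 2.30% ± 0.70, *Cyp4a32* 1.43% ± 0.46, *Cyp4a31* 0.99% ± 0.22 and *Cyp4a12b* 0.84% ± 0.25. The order of these last genes was not alike in all livers. *Cyp4a32* exceeded *Cyp4a12a* in 3 HFD and 2 HFD+AC261066 livers, *Cyp4a31* exceeded *Cyp4a32* in 1 chow liver and *Cyp4a12b* exceeded *Cyp4a31* in 2 chow livers. In those groups the order of these neighbors varied between livers. *Cyp4a12a* was above *Cyp4a32* in all 6 chow livers, and *Cyp4a32* was above *Cyp4a31* and *Cyp4a31* above *Cyp4a12b* in all HFD and HFD+AC261066 livers. The *Cyp4a32* model has an exon length of 1536 bases against a coding length of 1530. It thus nearly lacks untranslated exons, which affects its place in this order. Whole exon lengths were used for all members. Between 30.9% and 54.3% of the coding words of members other than *Cyp4a14* occurred in another gene, and 0% of those of *Cyp4a14*. If reads that matched several genes were left uncounted, those members are understated beside *Cyp4a14*. The shares and the order are therefore uncertain.

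In the livers of HFD-fed mice all 6 tested members fell relative to chow. This comparison sets the high-fat diet against a standard chow from another maker. The difference in fat therefore cannot be told apart from other differences between the diets. The largest fall was that of *Cyp4a12b*, 5.54-fold, followed by *Cyp4a31*, 2.87-fold. *Cyp4a12a*, *Cyp4a10* and *Cyp4a14* fell 1.90-fold, 1.89-fold and 1.85-fold, and *Cyp4a32* 1.33-fold. Among all 13268 tested genes, 16.3% were called lower and 15.8% higher at an adjusted p under 0.1 (limma, Benjamini-Hochberg). In bulk liver RNA, fewer hepatocytes and less transcript per hepatocyte cannot be told apart.

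*Cyp4a14* was the most abundant member on the per-kb scale and is the one that shares no 51-base word with another gene. Its log2 values in chow liver ran from 16.13 through a median of 16.76 to 17.28. HFD livers ran from 15.63 through 15.87 to 16.13. Every HFD liver was below every chow liver, although the highest HFD liver (16.129) and the lowest chow liver (16.133) nearly touched. The log2 difference was -0.89 (SE 0.18, adjusted p = 0.00180, limma). The exact two-sided permutation test of the 6 against 6 livers gave p = 0.00216, the smallest that this design can give.

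*Cyp4a10*, the other abundant PPARα-responsive member, ran from 15.02 through 15.38 to 15.46 in chow liver and from 14.08 through 14.38 to 14.69 in HFD liver. The groups did not overlap. Its log2 difference was -0.92 (SE 0.12, adjusted p = 4.62e-05, limma; exact permutation p = 0.00216).

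*Cyp4a31*, a close copy of *Cyp4a10*, was between 10.49 and 10.85 in chow liver, with a median of 10.60. In HFD liver it was between 8.82 and 9.48, with a median of 9.15. The gap between the groups was wider than the range within either one. The log2 difference of -1.52 (SE 0.15, adjusted p = 7.11e-06, limma; exact permutation p = 0.00216) ranked number 7 of the 13268 genes by p.

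*Cyp4a32*, the third gene of this trio, changed least. Its values ran from 10.10 through 10.44 to 10.90 in chow liver and from 9.60 through 9.94 to 10.50 in HFD liver. The groups overlapped, and 4 of the 6 HFD livers lay below all chow livers. The log2 difference was -0.41 (SE 0.17, adjusted p = 0.0801, limma; exact permutation p = 0.0541). This call did not hold under quantile normalization (adjusted p = 0.126), at a threshold of 0.05, or without any one of chow replicates 3, 4 and 5 and HFD replicates 2, 3, 4 and 6 (adjusted p up to 0.182).

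Among the male-biased members, *Cyp4a12b* had the lowest value of any tested member, 6.57 in HFD replicate 3. It ran from 9.40 through 10.53 to 10.72 in chow liver and from 6.57 through 7.94 to 9.20 in HFD liver, with no overlap. The log2 difference was -2.47 (SE 0.34, adjusted p = 8.08e-05, limma; exact permutation p = 0.00216). *Cyp4a12a* ran from 11.22 through 11.79 to 12.31 in chow liver and from 9.57 through 10.99 to 11.78 in HFD liver. Here the groups overlapped, since HFD replicates 1 and 4 were as high as the middle of the chow range while replicates 2 and 3 were more than a log2 unit below the lowest chow liver. Its log2 difference was -0.93 (SE 0.30, adjusted p = 0.0317, limma; exact permutation p = 0.0390), and -0.67 (adjusted p = 0.0746) without HFD replicate 3.

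**Figure D1:**
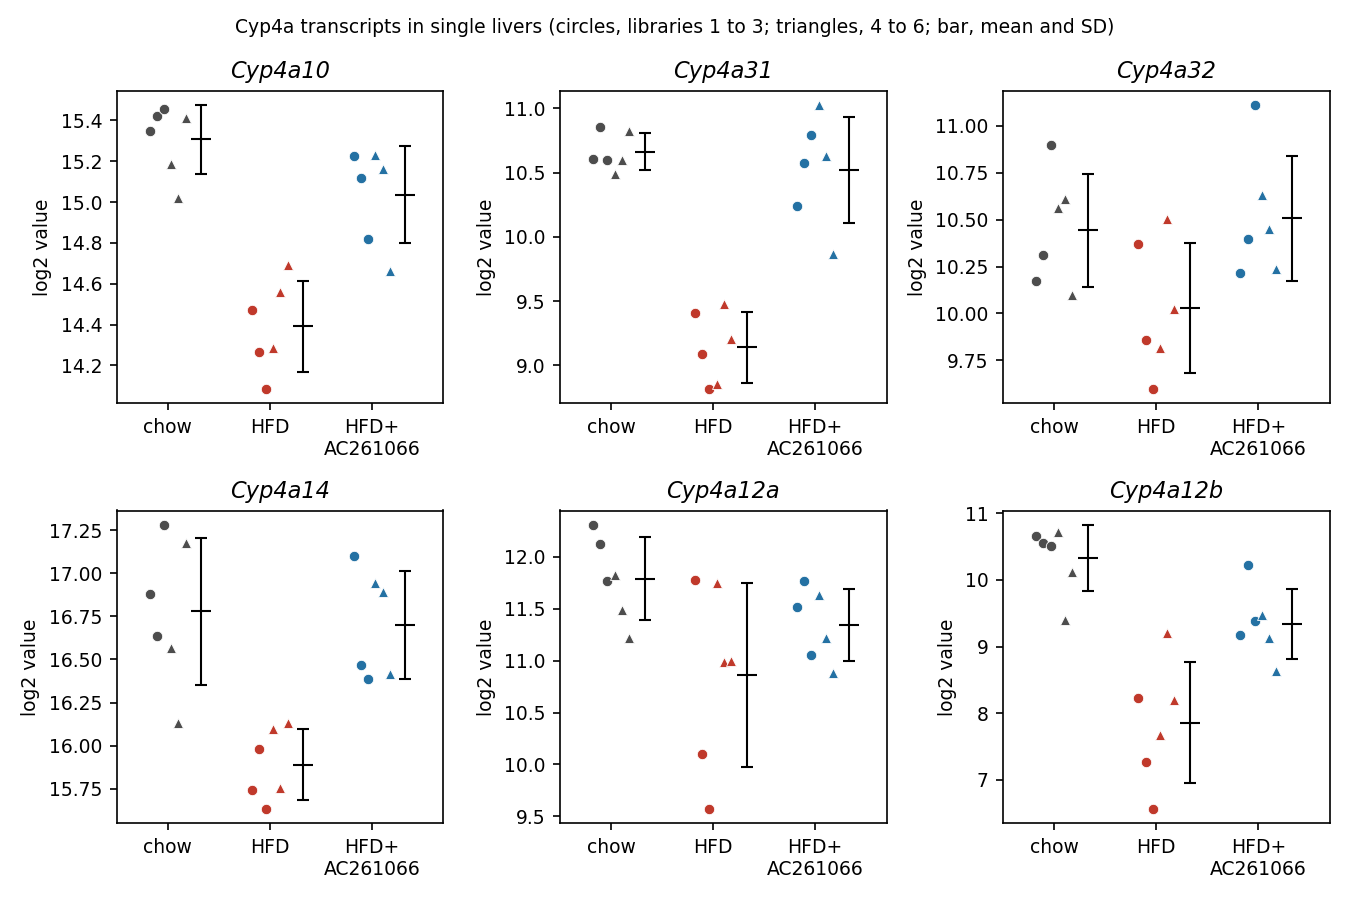
Log2 values of the 6 tested Cyp4a genes (vertical axes, which differ between panels and do not start at 0) in each of 6 livers of the chow, HFD and HFD+AC261066 groups. Circles are libraries 1 to 3, triangles libraries 4 to 6, and bars give the group mean and SD. The HFD livers lie below all chow livers for *Cyp4a10*, *Cyp4a31*, *Cyp4a14* and *Cyp4a12b* and overlap them for *Cyp4a32* and *Cyp4a12a*.

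The 4 of 6 members without overlap between HFD and chow compare with 9.72% of all tested genes. All 6 log2 differences were negative in libraries 1 to 3 and in libraries 4 to 6. Within libraries 1 to 3 they were -1.14 for *Cyp4a10*, -1.58 for *Cyp4a31*, -0.52 for *Cyp4a32*, -1.14 for *Cyp4a14*, -1.58 for *Cyp4a12a* and -3.22 for *Cyp4a12b*, and 5 of the 6 passed the test. Within libraries 4 to 6 the same genes had -0.69, -1.46, -0.31, -0.63, -0.27 and -1.72, and 4 passed. Over all tested genes 922 were called in libraries 1 to 3 alone. *Cyp4a32* passed in neither set, and *Cyp4a12a* did not pass in libraries 4 to 6 (adjusted p = 0.469). In the interaction test of group with set no member reached an adjusted p under 0.1, the smallest being 0.375 for *Cyp4a12b*, whose unadjusted p was 0.0232.

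With AC261066 on the high-fat diet the subfamily was higher than on the diet alone, and 4 of 6 members rose. *Cyp4a12b* rose 2.78-fold, *Cyp4a31* 2.60-fold, *Cyp4a14* 1.75-fold and *Cyp4a10* 1.56-fold. *Cyp4a12a* and *Cyp4a32* had fitted ratios of 1.40 and 1.39 that did not pass the test. Over all tested genes 2.13% were called higher and 2.25% lower in this comparison, and in 1.74% the livers of the groups did not overlap, as was the case for 2 of 6 members. The comparison uses the same HFD livers as the one with chow, so an opposite sign in the pair of comparisons is not independent information.

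*Cyp4a31* had the smallest p of all 13268 genes. Treated livers ran from 9.87 through 10.60 to 11.03, all above the highest HFD liver (9.48). The log2 difference was 1.38 (SE 0.15, adjusted p = 0.000270, limma; exact permutation p = 0.00216, the smallest possible). It was 1.43 in libraries 1 to 3 and 1.33 in libraries 4 to 6, and it passed in each set alone (adjusted p = 0.0224 and 0.0330).

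*Cyp4a14* in treated livers ran from 16.39 through 16.68 to 17.10, again all above the HFD livers. Its log2 difference was 0.81 (SE 0.18, adjusted p = 0.0244, limma; exact permutation p = 0.00216). *Cyp4a10* ran from 14.66 through 15.14 to 15.23 in treated livers, and 5 of the 6 exceeded every HFD liver. Its log2 difference was 0.64 (SE 0.12, adjusted p = 0.00915, limma; exact permutation p = 0.00433). Within libraries 1 to 3 the differences were 0.86 for *Cyp4a14* and 0.78 for *Cyp4a10*, and within libraries 4 to 6 they were 0.76 and 0.51, none past the test in a set alone (adjusted p between 0.115 and 0.238).

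*Cyp4a12b* in treated livers ran from 8.63 through 9.27 to 10.23, and 3 of the 6 exceeded every HFD liver. The log2 difference of 1.48 (SE 0.34, adjusted p = 0.0293, limma; exact permutation p = 0.00866) was 2.24 in libraries 1 to 3 and 0.72 in libraries 4 to 6, where it did not pass (adjusted p = 0.304). The difference between these set values had an unadjusted p of 0.0215 and an adjusted p of 0.245. *Cyp4a12a* in treated livers ran from 10.88 through 11.37 to 11.77, a narrower range than in HFD liver and inside it. Its log2 difference was 0.48 (95% confidence interval -0.14 to 1.11, adjusted p = 0.436, limma), and was 0.96 in libraries 1 to 3 against 0.0029 in libraries 4 to 6.

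*Cyp4a32* in treated livers ran from 10.22 through 10.42 to 11.11, where the highest value was that of replicate 3. The log2 difference was 0.48 (95% confidence interval 0.13 to 0.83, adjusted p = 0.145, limma; exact permutation p = 0.0368). Of the 30 alternatives it passed in 1, without HFD replicate 5 (adjusted p = 0.0995). Without HFD+AC261066 replicate 3, the treated liver that lay among the chow livers, the same 4 of 6 members were called, with log2 differences of 0.69 for *Cyp4a10*, 1.33 for *Cyp4a31*, 0.87 for *Cyp4a14* and 1.47 for *Cyp4a12b*.

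**Figure D2:**
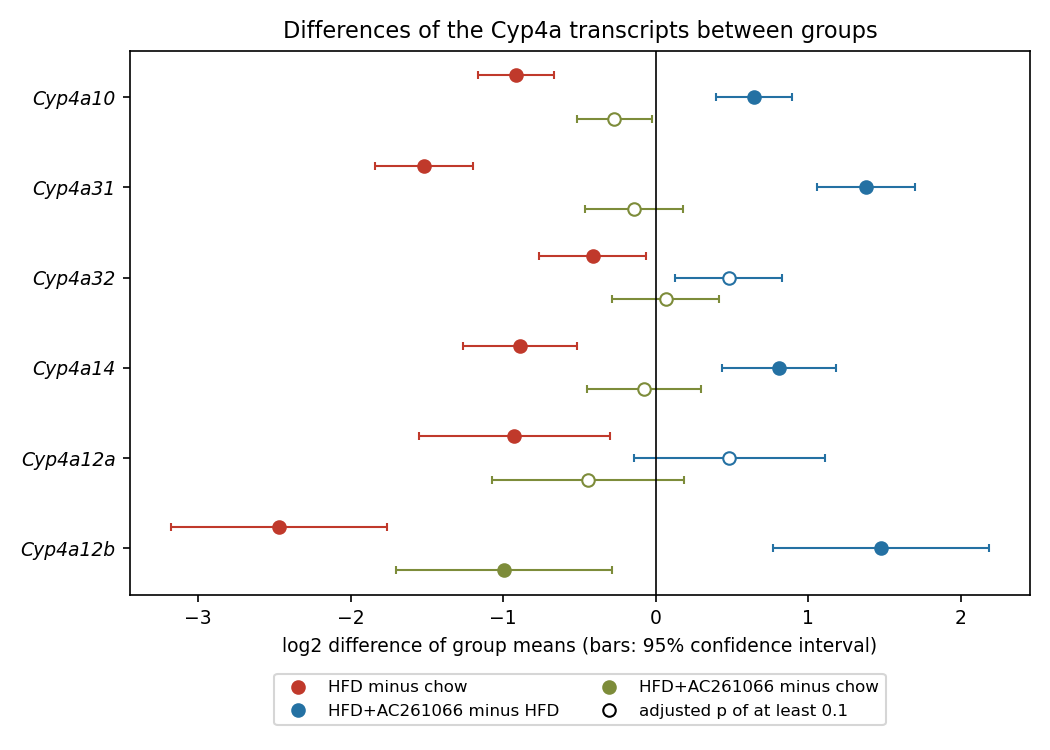
Log2 differences of group means (horizontal axis) with 95% confidence intervals from limma for the 6 tested Cyp4a genes in the 3 comparisons. Filled points have an adjusted p under 0.1 over all tested genes and open points do not. The 6 differences of HFD from chow are filled and negative, 4 of HFD+AC261066 from HFD are filled and positive, and of HFD+AC261066 from chow only *Cyp4a12b* is filled.

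Against chow, the livers of treated mice differed in 1 of 6 members. *Cyp4a12b* stayed 1.99-fold lower, with a log2 difference of -0.99 (SE 0.34, adjusted p = 0.0606, limma; exact permutation p = 0.0130) and 4 of 6 treated livers below all chow livers. That call ended at a threshold of 0.05, in libraries 1 to 3 alone (adjusted p = 0.236), and without any one of chow replicates 1 and 4 or HFD+AC261066 replicates 1, 5 and 6 (adjusted p from 0.104 to 0.122). In this comparison 9.79% of all tested genes were called higher and 9.89% lower, and in 3.69% the groups did not overlap. All 6 members overlapped between treated and chow livers.

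The other 5 members did not pass, and their intervals bound what could have been missed. For *Cyp4a10* the log2 difference from chow was -0.27 (95% confidence interval -0.52 to -0.02, adjusted p = 0.136, limma), and all 6 treated livers lay below the chow median. It was called without chow replicate 5 (-0.33, adjusted p = 0.0819). *Cyp4a31* had -0.14 (-0.46 to 0.18) and *Cyp4a14* -0.08 (-0.45 to 0.30). *Cyp4a32* had 0.07 (-0.29 to 0.42), or -0.055 without HFD+AC261066 replicate 3. *Cyp4a12a* had -0.44 (-1.07 to 0.18).

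Summed per kb over the 6 genes, the level of the subfamily ran in chow liver from 46490 through a median of 67094 to 86457 units of the linear scale. In HFD liver it ran from 28817 through 35278 to 41994, all below chow, and in HFD+AC261066 liver from 48069 through 60944 to 74832, all above HFD. The mean of the HFD livers was 0.528 times and that of the treated livers 0.898 times the mean of the chow livers. This sum follows *Cyp4a14* and *Cyp4a10*. In HFD liver they held 65.8% ± 4.1 and 28.8% ± 3.0 of it (SD, n = 6). In treated liver they held 68.4% ± 3.2 and 26.6% ± 2.2 (SD, n = 6). If reads that matched several genes were left uncounted, the part of *Cyp4a14* in this sum is overstated.

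Within single livers the members did not move in fixed proportion. The log2 value of *Cyp4a31* minus that of *Cyp4a10* was -4.65 ± 0.15 (SD, n = 6) in chow liver, -5.25 ± 0.18 in HFD liver and -4.51 ± 0.36 in treated liver. All HFD livers were below all chow and all treated livers in this difference, and chow and treated livers overlapped. *Cyp4a32* minus *Cyp4a31* was -0.22 ± 0.40 in chow liver, 0.89 ± 0.11 in HFD liver and -0.01 ± 0.30 in treated liver, and here too the HFD livers overlapped with neither of the others.

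The male-biased pair was looser. *Cyp4a12b* minus *Cyp4a12a* was -1.46 ± 0.39 in chow liver, -3.00 ± 0.77 in HFD liver and -2.01 ± 0.33 in treated liver. The lowest difference was -4.07 in HFD replicate 4, where *Cyp4a12a* was near the chow level, and HFD replicate 5 (-1.78) lay inside the chow range. By contrast *Cyp4a14* minus *Cyp4a10* was 1.47 ± 0.29, 1.50 ± 0.24 and 1.66 ± 0.18 in the 3 groups, which overlapped throughout. These within-liver differences were described and not tested.

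**Figure D3:**
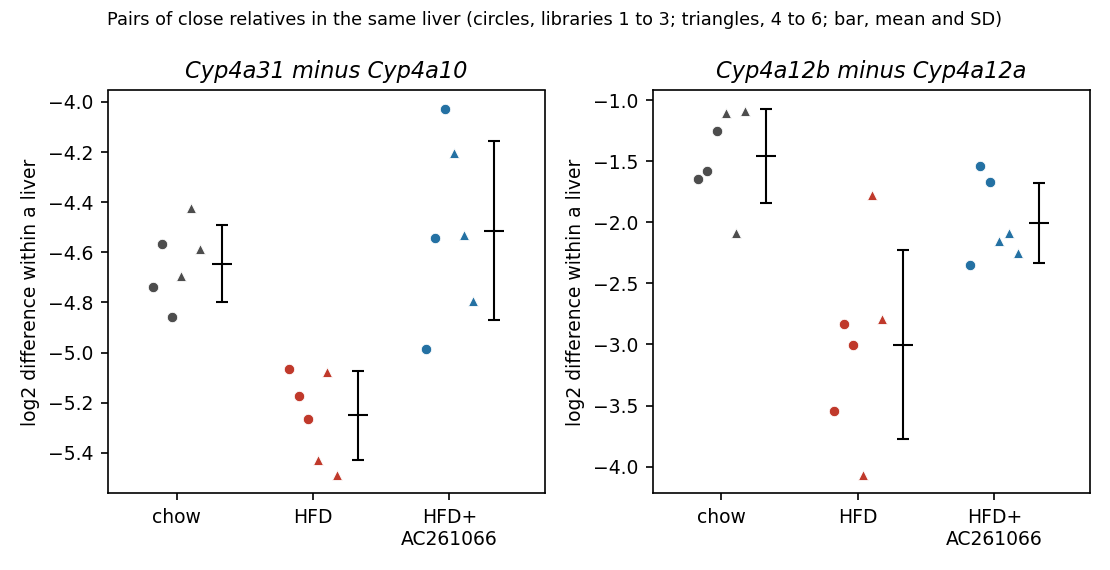
Log2 value of *Cyp4a31* minus that of *Cyp4a10* (left) and of *Cyp4a12b* minus that of *Cyp4a12a* (right) in each of 6 livers per group. Circles are libraries 1 to 3, triangles libraries 4 to 6, and bars give mean and SD. On the left the HFD livers (-5.49 to -5.06) lie below all others, and on the right 1 HFD liver reaches the chow range.

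After each group's mean was subtracted, the deviations of the single livers still ran together for some members, described here by Pearson's r over the 18 livers, which share libraries and batch correction. *Cyp4a10* ran with *Cyp4a14* (r = 0.67), *Cyp4a12b* (r = 0.66) and *Cyp4a31* (r = 0.58), and *Cyp4a12a* with *Cyp4a12b* (r = 0.65). *Cyp4a32* ran with *Cyp4a31* (r = 0.55) but hardly with *Cyp4a10* (r = 0.14). It shares 34.1% of its 51-base words with *Cyp4a10* and 25.1% with *Cyp4a31*. The highest r of the 15 pairs was that of *Cyp4a14* and *Cyp4a10*, which share no such word. The part of shared reads in these correlations was not tested.

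**Figure D4:**
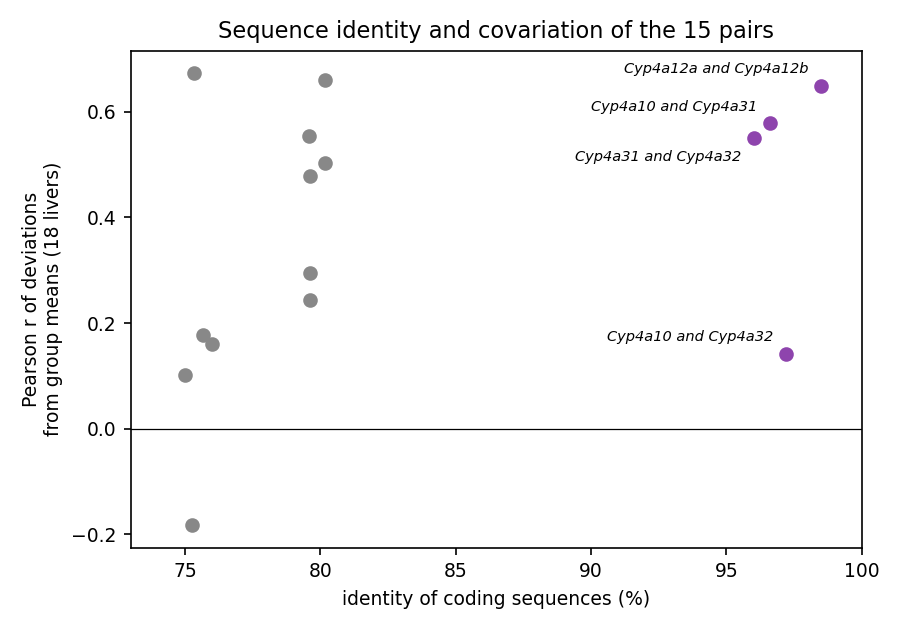
Identity of the coding sequences in percent (horizontal axis, from 73) against Pearson's r of the deviations from the group means over 18 livers (vertical axis) for the 15 pairs of Cyp4a genes. Purple points are the 4 pairs between 96.0% and 98.5% identity, whose r runs from 0.14 for *Cyp4a10* and *Cyp4a32* to 0.65 for *Cyp4a12a* and *Cyp4a12b*, and gray points the 11 pairs between 75.0% and 80.2%, whose r runs from -0.18 to 0.67.

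Outside the subfamily, the genes whose log2 values ran most like a member over the 18 livers were named by the size of r, as a description to which the shared group differences contribute. For *Cyp4a10* they were *Tmem243* (r = 0.93), the fatty acid elongase gene *Elovl2* (r = 0.92), the IGF binding protein gene *Igfbp2* (r = 0.90) and *Cspg5* (r = 0.88). *Tmem243* (r = 0.93) and *Igfbp2* (r = 0.91) led for *Cyp4a31* as well, followed by *Serpina1e*, a male-biased α1-antitrypsin gene (r = 0.91), and *Cadm4* (r = 0.90). *Elovl2* led for *Cyp4a14* (r = 0.90), before *B3gat3* (r = 0.89), *Fam20a* (r = 0.88) and *Adrm1* (r = 0.86). *Cyp4a12b* was nearest to *Csrp2* (r = 0.92), the complement gene *C6* (r = 0.90), the glutathione transferase gene *Gstp1* (r = 0.89) and *Igfbp2* (r = 0.88).

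*Cyp4a12a* was nearest to a pair of P450 genes, *Cyp2d10* (r = 0.90) and *Cyp2d9* (r = 0.84), and then to *Gadd45gip1* (r = 0.82) and *Kars* (r = 0.80). For *Cyp2d10* the r of the deviations from the group means was nearly as high, 0.87, and its own log2 difference of HFD from chow was -0.15 (adjusted p = 0.167, limma). *Cyp4a32* was nearest to *Ppp3cc* (r = 0.85), the α1-antitrypsin genes *Serpina1a* (r = 0.85) and *Serpina1b* (r = 0.84), and the E-cadherin gene *Cdh1* (r = 0.84), with r of deviations from 0.76 to 0.82.

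Other genes of the pathway changed in both directions. Of 42 tested PPARα target genes outside the subfamily, 11 (26.2%) rose and 3 (7.14%) fell in HFD liver against chow. Of all tested genes 15.8% rose and 16.3% fell. The median log2 difference of the targets was 0.16 beside 0.0060 for all tested genes. *Vnn1*, a pantetheinase, rose 2.00-fold (SE 0.25 on the log2 scale, adjusted p = 0.00752), the fatty aldehyde dehydrogenase *Aldh3a2* by a log2 difference of 0.82 (SE 0.18, adjusted p = 0.00301) and the fatty acid binding protein *Fabp1* by 0.47 (SE 0.20, adjusted p = 0.0967; all limma). The 3 that fell, named after their values were seen, were *Angptl4* (-0.31), *Cyp8b1* (-0.30) and *Acadvl* (-0.15), and with a batch term 0 of the 42 were called lower. These counts differed between the sets. In libraries 1 to 3 alone 0 of the targets rose and 3 fell, and in libraries 4 to 6 alone 21 rose and 0 fell, whereas the Cyp4a differences were negative in both.

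With AC261066, 1 of the 42 PPARα targets (2.38%) rose over HFD and none fell, beside 2.13% and 2.25% of all tested genes. It was the desaturase gene *Fads2* (log2 difference 0.48, adjusted p = 0.0907, limma). At an unadjusted p under 0.05, 7 of the targets were higher and 0 lower. With a batch term and in libraries 1 to 3 alone 0 passed, and in libraries 4 to 6 alone 7 rose. Over all tested genes 372 were called with a batch term and 23 in libraries 1 to 3 alone. The hormone gene *Fgf21* had 1.05 (adjusted p = 0.140) and *Creb3l3*, a liver transcription factor gene, 0.16 (adjusted p = 0.223). Against chow 14 of 42 (33.3%) were higher in treated liver and none lower, beside 9.79% and 9.89% of all tested genes. Among the 14 were *Fgf21* with 1.49 (adjusted p = 0.0139) and *Vnn1* with 1.12 (adjusted p = 0.00883; limma). In libraries 1 to 3 alone 0 and in libraries 4 to 6 alone 30 of the 42 targets were called higher. Over all tested genes 123 were called in libraries 1 to 3 alone for treated against chow liver. The totals over all genes in libraries 4 to 6 alone are not reported here.

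Of 26 tested genes for the electron donors of P450 enzymes and steps after omega-hydroxylation, 10 (38.5%) rose and 1 (3.85%) fell in HFD liver. The shares of all tested genes were 15.8% and 16.3%. The aldehyde dehydrogenase *Aldh1a1* rose by 0.88 (adjusted p = 0.000348), the peroxisomal transporter *Abcd2* by 1.20 (adjusted p = 0.00136), and the peroxisomal thioesterases *Acot3* by 1.09 (adjusted p = 0.0202) and *Acot4* by 0.60 (adjusted p = 0.0273). The 1 that fell, named after its value was seen, was *Por*, the reductase that passes electrons to microsomal P450 enzymes, with -0.24 (SE 0.10, adjusted p = 0.0790; all limma), a call lost with the replicate block. Under quantile normalization 16 rose. None of the 26 passed between HFD+AC261066 and HFD by limma at the adjusted threshold. At an unadjusted p under 0.05, 0 were higher and 2 lower in that comparison. In treated liver 6 (23.1%) were higher and none lower than in chow, beside 9.79% and 9.89% of all tested genes. In libraries 1 to 3 alone 2 rose with the diet and in libraries 4 to 6 alone 12. Over all tested genes 922 were called with the diet in libraries 1 to 3 alone.

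Of 9 tested Cyp4 genes outside the subfamily, 1 (11.1%) fell in HFD liver, beside 16.3% of all tested genes, and none rose. It was *Cyp4f13*, with -0.43 (SE 0.07, adjusted p = 0.000283; limma). *Cyp4f13* was still lower in treated liver than in chow, at -0.25 (adjusted p = 0.0216; limma). None of the 9 passed between HFD+AC261066 and HFD by limma (1 higher and 0 lower at an unadjusted p under 0.05). With the diet *Cyp4b1* had -0.10 (adjusted p = 0.385), *Cyp4v3* 0.16 (adjusted p = 0.344), *Cyp4f14* 0.10 (adjusted p = 0.487), *Cyp4f18* 0.17 (adjusted p = 0.160) and *Cyp4f39* -0.04 (adjusted p = 0.677).

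Among the lists, genes with a male bias in mouse liver had the medians closest to those of the members. Of 29 tested male-biased genes without Cyp4a12, 16 (55.2%) fell and 4 (13.8%) rose in HFD liver, beside 16.3% and 15.8% of all tested genes. The median log2 difference of the male-biased genes was -0.75. With AC261066 6 (20.7%) rose and 1 (3.45%) fell, beside 2.13% and 2.25% of all tested genes, and their median was 0.52. Without HFD replicate 1, 12 rose, and over the alternatives this median ran from 0.28 to 0.66. *Serpina1e* fell by 2.12 on the log2 scale (adjusted p = 0.000228) and rose by 1.70 with AC261066 (adjusted p = 0.0112). The complement genes *C6* and *C8b* fell by 1.03 (adjusted p = 7.02e-05) and 0.95 (adjusted p = 0.000947) and rose by 0.68 (adjusted p = 0.0150) and 0.64 (adjusted p = 0.0668). *Egfr*, a growth factor receptor gene, fell by 1.31 (adjusted p = 0.000404) and rose by 0.89 (adjusted p = 0.0364). *Gstp1* and *Gstp2* fell by 1.31 (adjusted p = 0.000210) and 0.95 (adjusted p = 0.000577), with 0.62 and 0.37 on AC261066 that did not pass (adjusted p = 0.112 and 0.254; all limma).

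Of 25 tested female-biased genes, 12 (48%) rose and 5 (20%) fell in HFD liver, beside 15.8% and 16.3% of all tested genes. With AC261066 10 (40%) fell and none rose, beside 2.25% and 2.13% of all tested genes. At an unadjusted p under 0.05, 14 of the 25 were lower and 0 higher with AC261066. The P450 genes *Cyp2b9* and *Cyp2b13* rose by 5.48 and 3.46 (adjusted p = 1.45e-06 and 0.000138), and with AC261066 had log2 differences of -2.52 and -3.02 (adjusted p = 0.00937 and 0.00570). *Hao2*, a hydroxyacid oxidase gene, rose by 2.25 and fell by 1.91, *Cyp2a22* rose by 2.44 and fell by 1.16, and the transporter gene *Slc22a27* rose by 1.96 and fell by 1.24. *Cyp3a16* fell by 0.59 with the diet and by a further 0.36 with AC261066 (adjusted p = 0.000336 and 0.0605; all limma). In libraries 1 to 3 and 4 to 6 alone, 9 and 10 female-biased genes rose with the diet and 5 and 13 male-biased genes fell. With AC261066 4 female-biased genes fell in each set, and 1 and 5 male-biased genes rose. Over all tested genes 922 were called with the diet and 23 with AC261066 in libraries 1 to 3 alone.

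**Figure D5:**
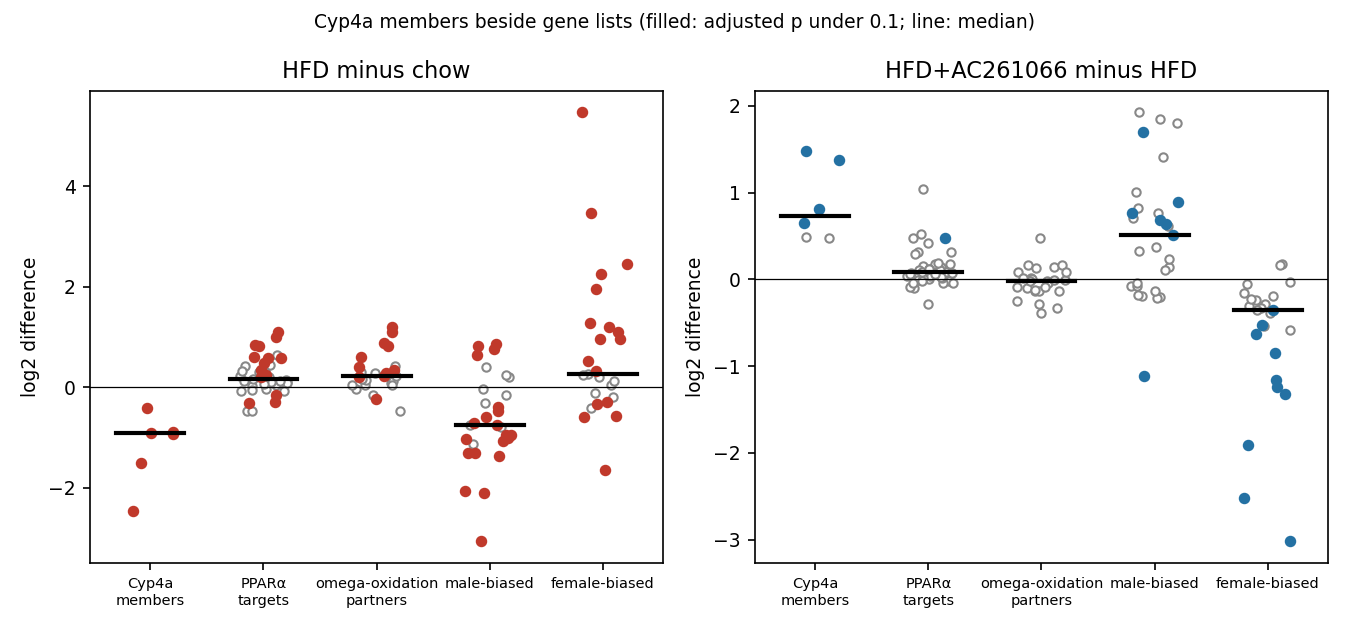
Log2 differences of HFD from chow (left) and of HFD+AC261066 from HFD (right) for the 6 Cyp4a genes and 4 gene lists, 1 point per tested gene. Filled points have an adjusted p under 0.1 and lines mark medians. The medians of the members are -0.92 and 0.73, those of the male-biased genes -0.75 and 0.52, and those of the PPARα targets 0.16 and 0.08.

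Among the regulators of Cyp4a genes, *Ppara* itself rose in HFD liver, by 0.38 (SE 0.11, adjusted p = 0.0160), and had -0.11 with AC261066 (adjusted p = 0.655). *Rxra*, its main partner in liver, had -0.12 (adjusted p = 0.161) and 0.06 (adjusted p = 0.682). *Rarb*, the gene of the receptor that AC261066 binds, was low, with group means from 6.21 to 6.25, and had 0.03 with the diet and -0.02 with AC261066 (adjusted p = 0.900 and 0.966). *Hnf4a*, a hepatocyte transcription factor, fell by 0.55 with the diet (adjusted p = 0.00472) and had 0.11 with AC261066 (adjusted p = 0.704; all limma).

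Of 27 tested receptors and cofactors, 5 (18.5%) rose and 6 (22.2%) fell in HFD liver, beside 15.8% and 16.3% of all tested genes. None passed between HFD+AC261066 and HFD by limma (2 higher and 2 lower at an unadjusted p under 0.05). *Pparg* rose by 0.80 (adjusted p = 0.00306), *Rxrg* by 0.53 (adjusted p = 0.00608) and the liver X receptor gene *Nr1h3* by 0.21 (adjusted p = 0.0244), and the FGF co-receptor gene *Klb* fell by 0.48 (adjusted p = 0.000730; all limma). Of 16 tested growth hormone and androgen pathway genes, 4 (25%) rose and 6 (37.5%) fell. *Stat5a* rose by 0.60 (adjusted p = 0.00161), *Socs2*, a target of growth hormone signaling, fell by 1.23 (adjusted p = 0.0169), *Trim24* fell by 0.45 (adjusted p = 0.0172) and *Cux2*, a female-biased repressor, fell by 1.66 (adjusted p = 0.00566). *Stat5b*, the main mediator of male growth hormone pulses, had 0.10 (adjusted p = 0.350; all limma).

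Retinoic acid response genes were checked because AC261066 acts on a retinoic acid receptor. Of 10 tested, 3 (30%) rose and 1 (10%) fell in HFD liver, beside 15.8% and 16.3% of all tested genes. None of the 10 passed with AC261066 by limma (2 higher and 2 lower at an unadjusted p under 0.05). *Cyp26a1*, the retinoic acid hydroxylase gene, fell by 0.65 with the diet (adjusted p = 0.0171), had -0.58 with AC261066 (adjusted p = 0.111) and was lower by a log2 difference of -1.22 in treated liver than in chow (adjusted p = 0.000835). *Cyp26b1* had 0.61 with AC261066 (adjusted p = 0.199), *Tgm2* rose by 0.45 and *Lrat* by 0.38 with the diet (adjusted p = 0.00351 and 0.0801), *Rarres2* rose by 0.25 (adjusted p = 0.0362) and *Dhrs3* had 0.24 (adjusted p = 0.125; all limma).

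Markers of other cells moved with some of these groups. Of 8 stellate cell and fibroblast markers 3 were higher in HFD than in chow liver and 3 lower in treated than in HFD liver, and their summed linear level ran from 4713 to 8334 in chow, 5836 to 10823 in HFD and 5012 to 6914 in HFD+AC261066 liver. Of 7 macrophage markers 2 were higher in HFD than in chow liver and 3 higher in treated than in chow liver. Their sums were 9158 to 11743, 10648 to 14196 and 10611 to 17823 in chow, HFD and treated liver. The sum of 5 fat tissue markers was 17.0 to 29.5, 65.2 to 148.02 and 20.3 to 67.0, while *Lep* was listed at 0 and *Adipoq* stayed at or under -0.72. The 1 fat tissue marker tested was higher in HFD than in chow liver and lower in treated than in HFD liver. It was still higher in treated than in chow liver. Of 7 hepatocyte markers 2 were lower in HFD liver, with sums from 2878270 to 3591707 in chow, 2773257 to 3215296 in HFD and 2704978 to 3564166 in treated liver. Of 6 endothelial markers 2 were higher in treated than in HFD liver, and 2 were higher and 1 lower in treated than in chow liver. The summed level of 5 cholangiocyte markers ran from 656.5 to 1206 in chow, 797.1 to 1111 in HFD and 732.5 to 880.0 in treated liver. The part of these markers in the Cyp4a differences was not tested.

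A promoter of 300 bases (250 before and 50 after the start) was at hand from RefSeq (GRCm38.p6) for 1 of the 6 genes, *Cyp4a32*, on the plus strand of chromosome 4 from 115600688 to 115600987. It held no AGGTCA half-site of nuclear receptors on either strand, a motif found in 16.3% of 32851 promoters. The direct repeat of this half-site with 1 base between, DR1 (AGGTCANAGGTCA), the kind that PPARα binds with a retinoid X receptor, occurred 1 time on the minus strand when up to 3 of its 12 fixed letters could differ, as ATCTCATAGTTCA, and 24.6% of all promoters held such a match. The repeat with 5 bases between, DR5 (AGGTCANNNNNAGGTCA), the kind that retinoic acid receptors bind, had no match under the same rule, and 21.7% of all promoters had one.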

How the data were processed

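Liver RNA libraries (TruSeq RNA) were sequenced by the authors as paired 51-base reads, aligned to mm9 with TopHat2 2.0.11, counted with HTSeq 0.6.1 and normalized with DESeq2 1.6.3, and batch effects were removed with limma. The deposited values are log2 expression per gene, not counts and not divided by gene length. The transform, the gene annotation and the batch of each library are not given in the sources used here. Those 13268 of 20512 genes whose log2 values averaged 2 or more were fitted with limma 3.58.1 (R 4.3.3) with a variance trend over all 18 libraries, without a batch term, and p-values were adjusted by Benjamini-Hochberg over all of them, with a threshold of 0.1. A fold is 2 to the power of a log2 difference, and a transform that draws low values together would understate it. Exact permutation tests and correlations used scipy 1.17.1. The fit was tested on simulated data. The study's methods give 1 approximate depth for all samples, and the counts per library are not in the file used here, so no counting interval is given, and the 6 livers per group set the precision. Coding sequences and exon lengths came from GENCODE vM1 (NCBIM37), aligned with MAFFT 7.526.

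All Cyp4a symbols were named, up to 6 genes of each longer list by smallest unadjusted p in any comparison, the regulators *Ppara*, *Rxra*, *Rarb*, *Hnf4a* and *Stat5b*, and the 4 genes with the highest r for each member. Some genes that this rule names are not reported here. Members and lists were chosen with earlier results of these data known. Alternatives comprised a batch term, either set of libraries alone, a replicate block, 3 other minimum values, 2 other scalings, no variance trend, 2-group fits, a threshold of 0.05 and leaving out each library.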

Additional observations from a re-analysis of the deposited data

How the results depend on the processing

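Over 30 alternatives, the log2 differences of HFD from chow stayed negative in 180 of 180 refits of single members. Those of HFD+AC261066 from HFD stayed positive in 180 of 180. Many of these refits could not change a difference. A batch term, the replicate block, other minimum values, no variance trend, 2-group fits and the threshold leave it as it was. So does a library left out of the group not compared. The differences of HFD+AC261066 from chow were negative in 148 and positive in 32 of 180. Of these, 6 had another sign than in the main fit, where *Cyp4a32* was positive. The 4 members raised by AC261066 became 2 in libraries 1 to 3 alone and 1 in libraries 4 to 6 alone, where fewer livers were fitted. The 1 member called between HFD+AC261066 and chow became 0 in libraries 1 to 3 alone, under the replicate block and at a threshold of 0.05. Leaving out 1 library gave 5 to 6 members for HFD against chow, 4 to 5 for HFD+AC261066 against HFD and 0 to 2 for HFD+AC261066 against chow. The difference of treated from chow liver changed sign for *Cyp4a14* to 0.13 in libraries 4 to 6 alone, 0.10 under quantile normalization, 0.023 without chow replicate 3 and 0.0021 without chow replicate 6, and for *Cyp4a32* to -0.0029 without chow replicate 6 and -0.055 without HFD+AC261066 replicate 3. Over all 18 libraries left out in turn these differences ran from -0.21 to 0.023 and from -0.055 to 0.16. The cause was not tested.

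Replicate numbers did not pair the livers, since same-numbered livers of different groups had correlations of their deviations from -0.36 to 0.15 (median -0.11), with 2 of 18 pairs over 0.1. With the replicate block, 6, 4 and 0 members were called in the 3 comparisons and *Cyp4a12b* against chow had an adjusted p of 0.109. Limits are the missing counts per library, the shared 51-base words of 5 members, and a batch correction that cannot be undone. Levelling of the sets before deposit means that tests without a batch term do not spend the degree of freedom it used. With a batch term, 6, 4 and 1 members were called. Over all genes the calls fell from 4257 to 922 for HFD against chow in libraries 1 to 3 alone. For HFD+AC261066 against HFD they went from 581 to 23 in libraries 1 to 3 alone, 372 with a batch term, 292 with the replicate block, 270 at a threshold of 0.05, and 275 to 938 with 1 library left out. For HFD+AC261066 against chow they went from 2611 to 123 in libraries 1 to 3 alone and 1590 at a threshold of 0.05.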

Other observations

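Arachidonic acid, a substrate of some Cyp4a enzymes, is also used by epoxygenases, lipoxygenases and cyclooxygenases. Of 23 tested genes of this group, 5 (21.7%) rose and 2 (8.70%) fell in HFD liver, beside 15.8% and 16.3% of all tested genes. With AC261066 2 rose and 4 fell, beside 2.13% and 2.25% of all genes, and 3 were higher and 4 lower in treated liver than in chow, beside 9.79% and 9.89%. *Cyp2c44*, an arachidonic acid epoxygenase gene, fell by 0.66 on the log2 scale with the diet (adjusted p = 0.00230) and had 0.34 with AC261066 (adjusted p = 0.214), the same signs as the Cyp4a genes. *Cyp2c39* rose by 0.41 (adjusted p = 0.0267) and fell by 0.66 with AC261066 (adjusted p = 0.0115), and *Cyp2u1* rose by 0.63 with the diet (adjusted p = 0.00829). *Cyp2c70*, *Cyp2j6* and the lipoxygenase gene *Alox12* had no diet difference past the test (0.21, 0.15 and -0.03) but changed with AC261066, falling by 1.12 (adjusted p = 0.0244), falling by 0.40 (adjusted p = 0.0282) and rising by 0.37 (adjusted p = 0.0150; all limma).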
